A study of Mus musculus with 6 samples.

Results

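Glycolysis enzymes and the main glucose transporter of T cells were followed in mouse Th9 cells, helper T cells named for the cytokine interleukin 9, made with or without interleukin 1β (IL-1β). The 10 genes were the rows of the deposited tables with the symbols Slc2a1, Hk2, Gpi1, Aldoa, Aldoc, Tpi1, Gapdh, Pgk1, Eno1 and Ldha, out of 23091 gene symbols. All 10 were listed in all 6 libraries. Values above 0 were given for 9 of them in the poly(A)-selected libraries, and Eno1 was listed at 0 in every library.

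Glycolysis splits glucose into pyruvate and yields ATP without oxygen. Glucose enters through transporters such as GLUT1, the product of Slc2a1, and hexokinase traps it in the cell. The later enzymes turn it into pyruvate, which lactate dehydrogenase reduces to lactate, regenerating the NAD+ that the pathway needs. T cells are known to raise glycolysis strongly when activated, under the control of mTOR, Myc and the hypoxia-inducible factor HIF-1.

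Naive CD4 T cells came from spleen and nodes of wild-type C57/Bl6j mice aged 7 weeks. Plate-bound CD3 and CD28 antibodies activated the cells, and differentiation was driven with IL-4 at 20 ng/ml and TGFβ at 2 ng/ml while interferon γ was blocked by an antibody. One arm also received IL-1β at 10 ng/ml and the other received none. Both arms gave 1 library at each of 3 stages, which were 1 h of culture, day 3 of culture, and in vivo. For this last stage, cells carrying CD45.2 were injected after 3 days of culture into mice carrying CD45.1 and were sorted 1 week later. Neither the tissue they were sorted from nor the number of mice is given in the sources used here. The RNA of each library came from 300000 cells. It was depleted of rRNA for both 1 h libraries and poly(A)-selected for the other 4, so the step between 1 h and day 3 cannot be told apart from this change of RNA selection.

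The values are the authors' FPKM, fragments scaled to transcript length and library size, with a lower and an upper bound for each gene. Neither the sequencing depth nor the level of these intervals is given in the sources used here. The distance from the middle of an interval to its bounds was, at the median gene, 42.1% and 69.9% of the value at 1 h with and without IL-1β, then 24.8% and 23.4% at day 3, and 27.0% and 26.8% in vivo. Genes entered a comparison if either library held at least 5 FPKM. They were counted, as higher or as lower, if (FPKM + 1) differed at least 2-fold with intervals that did not overlap. Each group being 1 library, such a count has no replicate check and no p-value. In bulk RNA, fewer cells of a type and less RNA per cell cannot be told apart. The 10 T cell markers were present in every library, summing to 102.0 and 78.9 FPKM at 1 h with and without IL-1β, then 2874 and 2546 at day 3, and 2327 and 2435 in vivo. In the poly(A)-selected libraries the values of Cd2, Cd3e, Cd3g and Lat lay above their own intervals. The size of these T cell sums is thus uncertain.

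Several of the 9 measured genes were among the most abundant transcripts of the cultured and the injected cells, and the order of the 9 was similar in the 4 poly(A)-selected libraries. Their FPKM summed to 27.0 with IL-1β and 14.7 without at 1 h, to 4416 and 3352 at day 3, and to 2748 and 2649 in vivo. These sums were 0.0118% and 0.0103% of all FPKM at 1 h, 1.08% and 0.930% at day 3, and 0.746% and 0.733% in vivo. Gapdh had the highest level in each of these 4 libraries, ranking between 26 and 37 among all genes. Its interval overlapped that of Aldoa in both in vivo libraries, and lay above that of Ldha at day 3 with IL-1β. At day 3 without IL-1β its interval, 734 to 829.9 FPKM, lay below that of Aldoa, 834 to 930.3 FPKM, although its value was higher, so their order there is uncertain. Aldoa and Ldha followed, then Tpi1, then Gpi1 and Pgk1, then Slc2a1, and Aldoc and Hk2 came last. Neighbours whose intervals overlapped were Ldha and Aldoa at day 3 in both arms, Gpi1 and Pgk1 at day 3 without IL-1β, and Pgk1 and Slc2a1 in vivo with IL-1β. Slc2a1 overlapped with Aldoc in vivo without IL-1β, and Aldoc with Hk2 in the other 3 libraries. Over these 4 libraries the highest level was 4.46 times the lowest for Aldoc and 3.18 times for Pgk1. It was 1.20 times for Hk2 and 1.26 times for Gpi1, and between 1.46 and 1.96 times for the other 5.

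**Figure D1:**
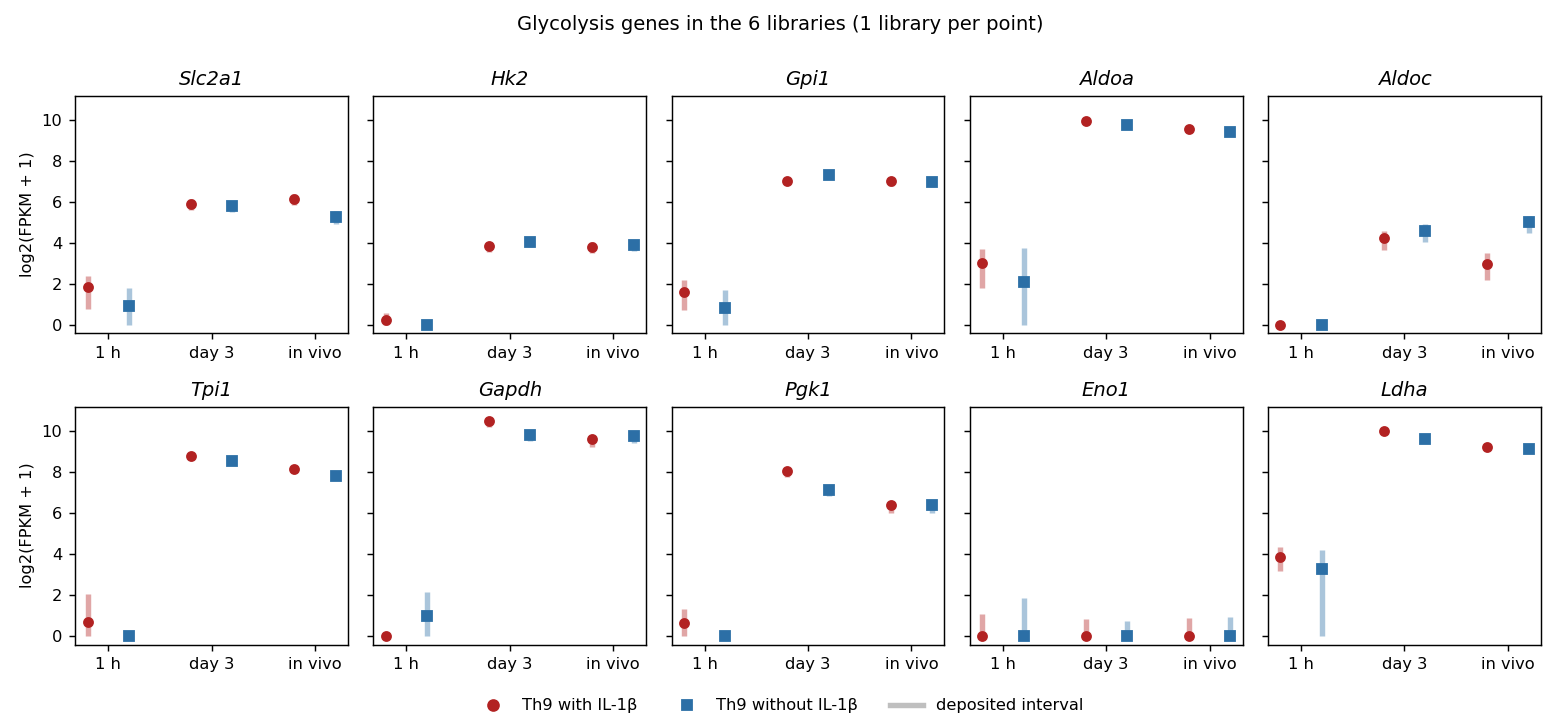
FPKM of the 10 genes in the 6 libraries, as log2 of FPKM + 1 on the vertical axis and stage on the horizontal axis. Each point is 1 library (red circles with IL-1β, blue squares without) and each pale bar the deposited interval. Points at day 3 and in vivo lie far above those at 1 h except for Eno1, and Aldoc and Pgk1 vary most among the 4 later libraries.

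HIF-1 is known to bind DNA at ACGTG or GCGTG, and Myc at CACGTG, which contains ACGTG on both strands. The windows from RefSeq around the annotated starts (GRCm38.p6, 300 bases each) were searched for these letters on both strands, and all 10 genes had at least 1 window, 16 in all. ACGTG or GCGTG stood in 13 of these 16 windows, against 43.8% of all 32851 windows searched. Some windows of Aldoa overlap, as do some of Eno1, so the same matches were counted more than once. By gene, 8 of the 10 had a match in at least 1 window. A gene can have several windows, so the 43.8% is no measure for this count. CACGTG stood in 1 of the 16, an Ldha window, against 7.15% of all windows. A match is only a description of the letters. A window is printed for each of the 2 genes with the widest range of levels, and for Ldha, the gene that holds CACGTG. All are given 5′ to 3′ on the plus strand with each match to ACGTG or GCGTG, on either strand, in capitals. The Ldha window, chr7:46845554-46845853, holds 5 matches to ACGTG, 4 of them from its 2 CACGTG, and 2 to GCGTG. The Pgk1 window, chrX:106186850-106187149, holds 2 matches to ACGTG. The Aldoc window, chr11:78322823-78323122, holds 1 match to ACGTG and 2 to GCGTG.
Ldha: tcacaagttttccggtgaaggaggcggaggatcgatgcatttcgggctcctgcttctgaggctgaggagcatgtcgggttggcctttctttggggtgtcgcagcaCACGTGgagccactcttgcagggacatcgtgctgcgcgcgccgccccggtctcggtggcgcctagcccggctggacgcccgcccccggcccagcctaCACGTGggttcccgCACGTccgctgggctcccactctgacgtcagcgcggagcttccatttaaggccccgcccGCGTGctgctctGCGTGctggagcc
Pgk1: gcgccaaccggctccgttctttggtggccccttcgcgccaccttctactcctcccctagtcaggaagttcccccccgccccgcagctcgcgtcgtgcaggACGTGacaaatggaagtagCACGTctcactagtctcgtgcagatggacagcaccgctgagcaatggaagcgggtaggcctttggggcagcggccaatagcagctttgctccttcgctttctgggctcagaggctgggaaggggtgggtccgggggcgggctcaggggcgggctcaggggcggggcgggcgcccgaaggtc
Aldoc: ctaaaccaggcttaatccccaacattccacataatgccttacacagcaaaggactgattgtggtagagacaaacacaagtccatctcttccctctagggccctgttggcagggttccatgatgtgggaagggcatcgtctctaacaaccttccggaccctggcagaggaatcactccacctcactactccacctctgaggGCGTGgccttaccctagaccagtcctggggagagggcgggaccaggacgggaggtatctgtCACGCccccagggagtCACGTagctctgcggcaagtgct

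Slc2a1, which encodes the glucose transporter GLUT1 (mm9, chr4:118781350-118809934), had 2.65 FPKM with IL-1β and 0.884 without at 1 h, 58.8 and 55.0 at day 3, and 70.8 and 37.4 in vivo. At each stage the IL-1β library was the higher of the pair. The intervals overlapped at day 3 but not in vivo, where 57.1 to 83.4 FPKM with IL-1β stood against 29.2 to 45.7 without. Its log2 ratio in vivo was 0.90, short of 2-fold.

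Hk2 encodes hexokinase 2, the inducible enzyme that phosphorylates glucose (chr6:82675021-82724448). At 1 h it had 0.171 FPKM in the IL-1β library and 0 in the other, at day 3 13.5 FPKM with IL-1β and 15.6 without, and in vivo 13.0 and 14.0. Among the 9 measured genes it had the narrowest range, and its intervals overlapped in each of the 4 comparisons among the poly(A)-selected libraries. Hk1, the other main hexokinase, stood above it at 47.8 and 53.2 FPKM in vivo with and without IL-1β, and 38.5 and 52.3 FPKM at day 3.

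Gpi1, which encodes the isomerase that makes fructose 6-phosphate (chr7:34986346-35015324), had 2.04 and 0.791 FPKM at 1 h with and without IL-1β, then 131 and 159 at day 3, and 131 and 126 in vivo. Only the in vivo and day 3 libraries without IL-1β had intervals that did not overlap, with 107 to 136 FPKM in vivo and 139 to 169 FPKM at day 3. With IL-1β the in vivo and day 3 intervals overlapped.

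The aldolases cleave fructose 1,6-bisphosphate. Aldoa encodes the main form of most tissues (chr7:133938748-133943961) and had 7.24 and 3.27 FPKM at 1 h with and without IL-1β, then 999 and 880.0 at day 3, and 749 and 685 in vivo. Both in vivo values were below both day 3 values. Aldoc encodes aldolase C, known best from brain (chr11:78137700-78140262). It was listed at 0 in both 1 h libraries, had 17.8 and 22.8 FPKM with and without IL-1β at day 3, and 6.99 and 31.2 in vivo. In vivo its interval was 3.58 to 10.3 FPKM with IL-1β and 21.6 to 39.6 without. The lowest and the highest Aldoc level of the 4 poly(A)-selected libraries were thus both in vivo. Aldoc made up 0.924% of the FPKM of both aldolases in vivo with IL-1β and 4.36% without, against 1.75% and 2.53% at day 3.

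Tpi1 encodes triose phosphate isomerase (chr6:124760610-124764314). At 1 h it had 0.632 FPKM in the IL-1β library and 0 in the other, at day 3 439 FPKM with IL-1β and 371 without, and in vivo 289 and 224. The intervals of the IL-1β library lay above those of the other library at day 3 and in vivo, and both in vivo levels were below both day 3 levels. Gapdh, which encodes the dehydrogenase that reduces NAD+ in the pathway (chr6:125111870-125115601), was listed at 0 with IL-1β at 1 h and had 0.990 FPKM without. It had 1461 and 914 FPKM at day 3 and 792 and 879.7 in vivo, so the IL-1β library of day 3 stood apart from the other 3. Each of these 4 values lay above its own deposited interval, which was 1184 to 1316 FPKM for the highest. Of the stretches of 50 bases in the Gapdh transcript, 82.5% also occur in transcripts of other genes in the GENCODE M21 annotation, 215 of them pseudogenes, so the division of its reads is uncertain.

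Pgk1 encodes phosphoglycerate kinase 1, which makes the first ATP of the pathway (chrX:103382463-103399038). At 1 h it had 0.556 FPKM in the IL-1β library and 0 in the other. It had 264 and 139.9 FPKM with and without IL-1β at day 3, and 83.8 and 82.8 in vivo. At day 3 the intervals were 220.2 to 270.4 FPKM with IL-1β and 114 to 145 without. Levels of the arms thus stood apart at day 3 and were nearly equal in vivo. Of the stretches of 50 bases in its transcript 68.0% also occur in 5 pseudogenes, so its reads too may be divided.

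Eno1, which encodes the main enolase (chr4:149611306-149622982), was listed at 0 with a status of OK in all 6 libraries, with upper bounds between 0.702 and 2.63 FPKM. A second entry, Gm5506, covers nearly the same stretch (chr4:149611433-149622982). It was listed at 2.14 FPKM at 1 h in both arms, at 433 and 338 FPKM with and without IL-1β at day 3, and at 295 and 224 FPKM in vivo. Its status there was LOWDATA, so it was left out of the counts and tests. Of the stretches of 50 bases in the Eno1 transcript, 72.2% also occur in transcripts of other genes. No change in Eno1 can be read from these files.

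Ldha encodes the lactate dehydrogenase subunit of activated and fast glycolytic cells (chr7:54101174-54110997). It had 13.7 and 8.72 FPKM at 1 h with and without IL-1β, then 1031 and 795 at day 3, and 612 and 569 in vivo. It was the highest of the 10 genes at 1 h in both arms. The arms had separate intervals at day 3, at 981 to 1087 FPKM with IL-1β and 752 to 839 without, and overlapped in vivo.

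The first comparison of the arms was made at day 3, at the end of the culture with or without IL-1β. Levels of the later enzymes Pgk1, Gapdh and Ldha stood higher with IL-1β, at log2 ratios of 0.91, 0.68 and 0.38 with separate intervals, and Tpi1 and Aldoa at 0.24 and 0.18. Slc2a1 stood at 0.10. Hk2, Gpi1 and Aldoc stood lower at -0.20, -0.27 and -0.34, with intervals that overlapped. None of the 9 genes compared reached 2-fold, so 0 were counted, against 1.29% of all genes counted as higher and 2.15% as lower. Their median log2 ratio was 0.18, against -0.05 over all 7962 genes compared, and their summed FPKM was 1.32 times that without IL-1β. Gapdh, whose values lay above their own intervals, made up 33.1% and 27.3% of the sums with and without IL-1β.

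These ratios ran with transcript length. Over 7893 genes the log2 ratio at day 3 had a Spearman rho of -0.59 with length, across genes of 1 pair of libraries. The median ratio was 0.39 among genes of up to 1375 bases and -0.45 among those of 4036 bases or more. Tpi1, Gapdh, Aldoa, Ldha and Pgk1 have median transcript lengths of 1205 to 1825 bases, and the 5 genes with separate intervals at day 3 were these 5. With the trend removed, Pgk1 stood at 0.80, Gapdh at 0.40, Slc2a1 at 0.28, Ldha at 0.19 and Hk2 at 0.11. Aldoa and Tpi1 then stood at -0.03 and -0.05, Gpi1 at -0.14 and Aldoc at -0.34. The sign of Aldoa, Tpi1 and Hk2 thus depends on this correction. No such trend appeared between the arms in vivo (rho 0.01) or between in vivo and day 3 without IL-1β (0.03), and rho was 0.38 between in vivo and day 3 with IL-1β. Among these 4 comparisons, the 2 with a trend both hold the IL-1β library of day 3. Day 3 against 1 h, across the change of RNA selection, had rho of -0.46 with IL-1β and -0.36 without.

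**Figure D2:**
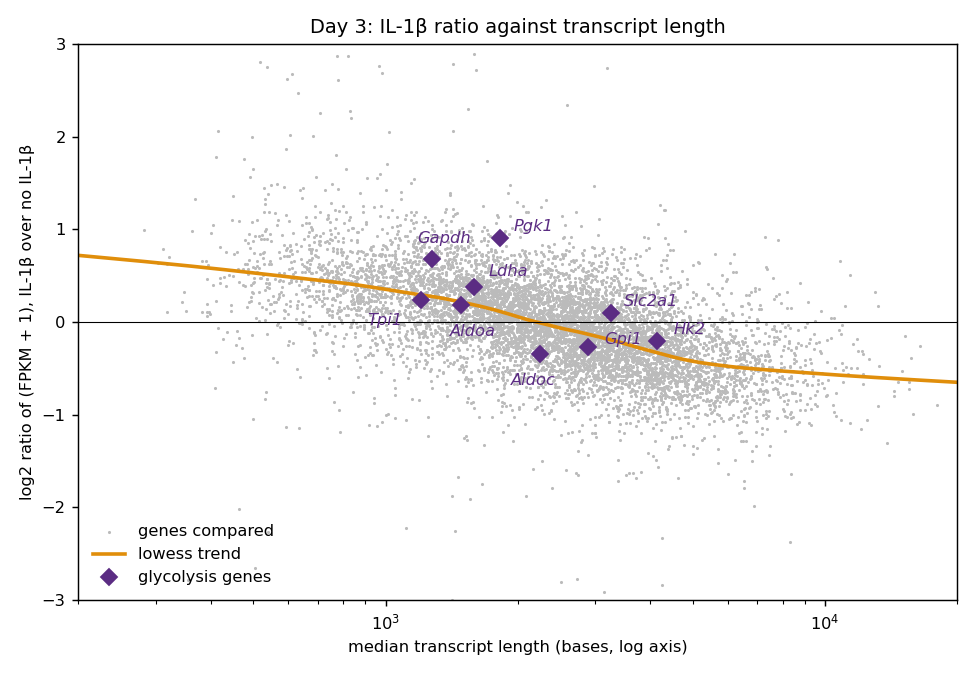
Log2 ratio of (FPKM + 1) at day 3, IL-1β over no IL-1β (vertical axis), against median transcript length in bases (log axis), with 1 grey point per gene, the lowess trend in orange and 9 glycolysis genes as purple diamonds. Pgk1 and Gapdh lie above the trend, Tpi1 and Aldoa close to it, and Aldoc below it; 40 of the 7893 genes lie outside the axes.

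In vivo, IL-1β had been given only during the preceding culture. Aldoc was counted as lower in the IL-1β library, with a log2 ratio of -2.01, and was the only 1 of the 9 genes compared to be counted, against 3.48% of all genes counted as lower and 6.23% as higher. Slc2a1 stood at 0.90 and Tpi1 at 0.37, both with separate intervals and under 2-fold. The other 6 had overlapping intervals and lay between -0.15 for Gapdh and 0.13 for Aldoa. Pgk1 stood at 0.02 here, against 0.91 at day 3, and the difference between these ratios was not tested. The median log2 ratio of the 9 genes was 0.06, against 0.03 over 8639 genes. Their summed FPKM was 1.04 times that without IL-1β.

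The in vivo libraries also held RNA of other cell types, in unequal amounts. Markers of epithelium and stroma summed to 17172 FPKM in vivo with IL-1β and 6617 without, against 29.1 and 30.8 at day 3. Of these 12 markers, 11 could be compared in vivo and 9 were counted as higher with IL-1β. Most of the sum was the surfactant gene Sftpc, at 10010.5 and 3512 FPKM, and the airway secretory gene Scgb1a1, at 5710 and 2736. In both libraries these values lay above their own intervals, which for Sftpc were 6770 to 7159 and 2419 to 2683 FPKM. The size of the sums is thus uncertain. The 10 myeloid markers summed to 2135 and 908 FPKM in vivo with and without IL-1β, against 44.8 and 34.0 at day 3. Of 9 myeloid markers compared in vivo, 2 were counted as higher with IL-1β, Lyz2 at 1614 and 521 FPKM and Csf1r at 10.3 and 1.91. S100a8 and S100a9 were nearly equal, at 107 FPKM in both libraries and at 116 and 117 FPKM. The values of Lyz2, S100a8 and S100a9 also lay above their own intervals in both libraries. The 8 erythroid and platelet markers summed to 742 and 392 FPKM in vivo, against 22.4 and 10.5 at day 3. None of the listed epithelial or myeloid markers was at 0 in vivo, whereas Hbb-b1 was at 0 in both in vivo libraries. The part of these cells in the Aldoc and Slc2a1 values was not tested. Scaled to the T cell markers, Slc2a1 also passed 2-fold, making 2 counted genes, against 719 of all 8843 genes higher and 219 lower. The T cell markers themselves had unscaled log2 ratios from -0.47 (Cd2) to 0.68 (Lat) in this comparison.

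**Figure D3:**
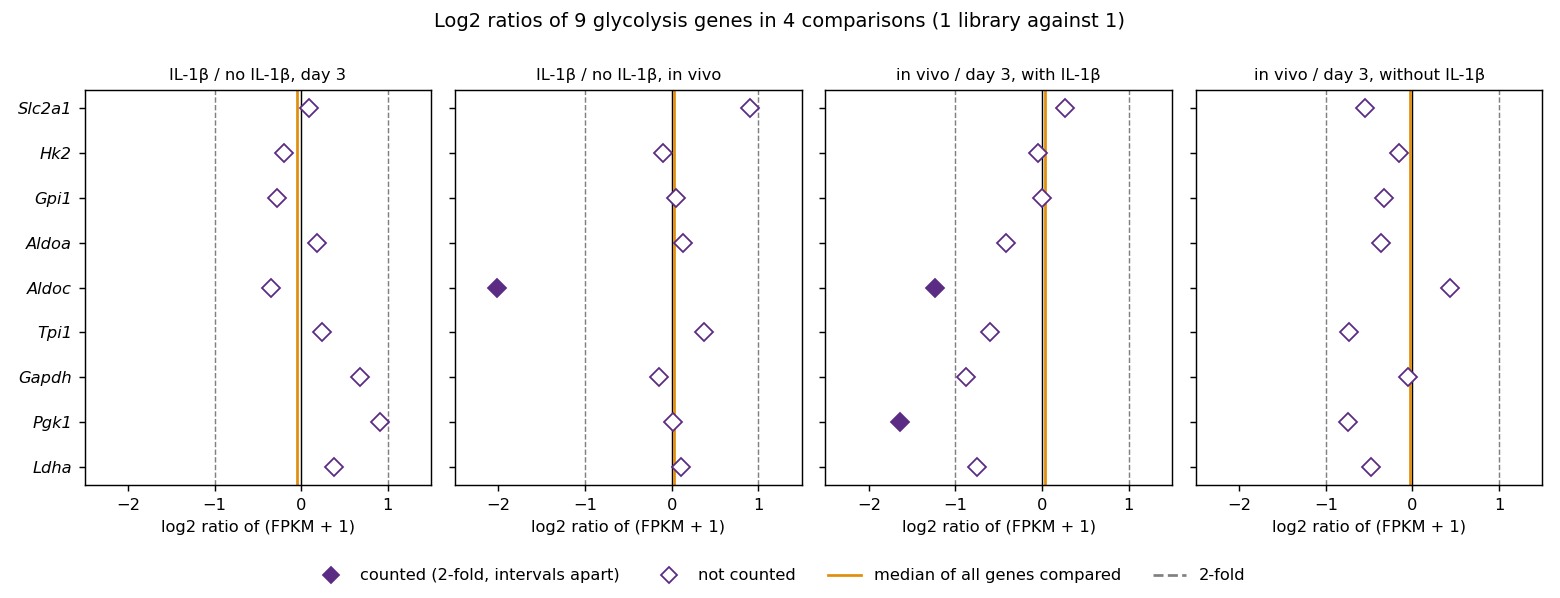
Log2 ratio of (FPKM + 1) for 9 glycolysis genes in 4 comparisons of 1 library with 1 other. Filled diamonds were counted (at least 2-fold, separate intervals), the orange line is the median of all genes compared and dashed lines mark 2-fold. Aldoc is counted in both panels that hold the in vivo library with IL-1β, Pgk1 only for in vivo against day 3 with IL-1β.

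The comparison of stages asked what the cells keep 1 week after injection. Most glycolysis genes had lower FPKM in vivo than at day 3. Without IL-1β, 8 of the 9 genes were lower, led by Pgk1 at a log2 ratio of -0.75, Tpi1 at -0.73, Slc2a1 at -0.54 and Ldha at -0.48, and Aldoc stood at 0.43. Intervals were separate for Pgk1, Tpi1, Ldha, Aldoa (-0.36) and Gpi1 (-0.33), but 0 genes reached 2-fold, against 0.665% of all genes counted as lower and 2.13% as higher. The median was -0.36, against -0.03 over all 8126 genes, and the summed FPKM was 0.790 times that of day 3.

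With IL-1β the 8 lower genes included Pgk1 at -1.64 and Aldoc at -1.23, and these 2 were counted, against 5.87% of all genes counted as lower and 12% as higher. Gapdh stood at -0.88, Ldha at -0.75, Tpi1 at -0.60 and Aldoa at -0.42, each with separate intervals. Hk2 and Gpi1 stood at -0.05 and -0.00, and Slc2a1 at 0.26, with overlapping intervals. The median was -0.60, against 0.04 over all 8572 genes, and the summed FPKM was 0.622 times that of day 3. With the length trend removed, Pgk1 stood at -1.46 and Aldoc at -1.18 and both were still counted, whereas Gapdh stood at -0.52, Ldha at -0.49, Tpi1 at -0.22 and Aldoa at -0.13. The IL-1β library of day 3 also enters the comparison of arms at day 3, so the higher Pgk1 there and the lower Pgk1 here rest on the same value.

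Across both arms, limma on log2 of (FPKM + 1) in the 4 poly(A)-selected libraries called 0 of the 9 genes between in vivo and day 3 at an adjusted p under 0.05. It called 1.33% of 8901 genes as higher in vivo and 0.0674% as lower. The libraries of a stage differ in IL-1β and are not replicates, so the spread in this test includes the difference between the arms. All 9 changes were below 0, with a median of -0.40 against 0.00 over all genes. Removing the length trend left all 9 below 0. Pgk1 had the largest change, -1.20 (SE 0.376, limma adjusted p = 0.367), and the only unadjusted p under 0.05 (limma, 0.0182). Over all 8901 genes, 799 had an unadjusted p under 0.05 in this limma test. Without the IL-1β library of day 3 the change of Pgk1 was -0.74, and without the other day 3 library -1.65. Tpi1 followed at -0.67 (SE 0.301, limma adjusted p = 0.609) and Ldha at -0.62 (SE 0.295, limma adjusted p = 0.626). Aldoc stood at -0.40 with a SE of 0.640, its arms having opposite signs.

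The same 4 libraries, with stage as a covariate, gave 0 calls among the 9 genes for IL-1β against no IL-1β, where limma called 0.303% of all genes as higher and 0.0786% as lower. Aldoc came closest at -1.18 (SE 0.422, limma adjusted p = 0.433), followed by Slc2a1 at 0.50 (SE 0.377, limma adjusted p = 0.954) and Pgk1 at 0.46 (SE 0.380, limma adjusted p = 0.976). Aldoc had the only unadjusted p under 0.05 among the 9 (limma, 0.0139), against 688 of all 8901 genes tested. The median of the 9 was 0.24, against -0.01 over all genes.

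The rest of the pathway was described from lists of other glycolysis genes, pentose phosphate enzymes, pyruvate and TCA cycle enzymes, HIF targets outside glycolysis, and regulators. In the limma test of in vivo against day 3, 0 genes of these 5 lists were called. The change was below 0 for 11 of 16 other glycolysis genes (median -0.19), 6 of 7 pentose phosphate enzymes (-0.25), 21 of 24 pyruvate and TCA cycle enzymes (-0.32) and 10 of 13 HIF targets (-0.20). It was below 0 for 5 of 13 regulators (median 0.08) and 7 of 10 T cell markers (-0.09). By contrast 6 of 9 myeloid, 2 of 5 erythroid and platelet, and 6 of 11 epithelial and stromal markers were called as higher in vivo. These changes pool arms that differed. The median log2 ratio of the pyruvate and TCA cycle list was -0.46 with IL-1β and -0.02 without. That of the pentose phosphate list was -0.45 and -0.07, and that of the HIF targets -0.004 and -0.39. Other glycolysis genes had -0.29 and -0.24, and all genes 0.04 and -0.03. With IL-1β the ratios between stages also ran with transcript length (rho 0.38).

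**Figure D4:**
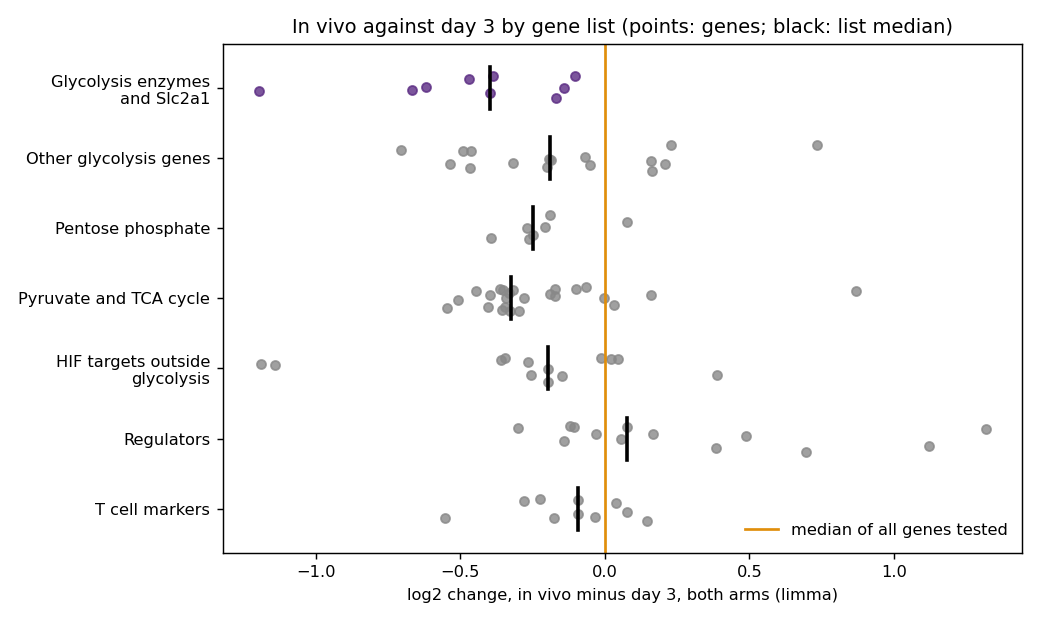
Change from limma, in vivo minus day 3 over both arms (log2, horizontal axis), for each gene of 7 lists. Each point is 1 gene, black bars are list medians and the orange line is the median of all genes tested. All 9 glycolysis genes lie below 0, and the pyruvate and TCA cycle list has the next lowest median. Taken by arm, the median ratio of that list was -0.46 with IL-1β and -0.02 without.

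Among the other glycolysis genes, those with the largest average difference between stages were mostly lower in vivo. Pgam1, phosphoglycerate mutase, had 137 and 109 FPKM in vivo with and without IL-1β, against 216 and 185 at day 3. Pkm2, pyruvate kinase, had 459 in both in vivo libraries, against 655 and 614 at day 3. The lactate exporter Slc16a3 had 44.0 and 34.2 FPKM in vivo, against 62.7 and 51.1 at day 3. For each of these genes both in vivo values lay below both day 3 values. Slc16a1, another lactate transporter, had 11.0 and 13.6 FPKM in vivo, against 17.2 and 18.0 at day 3, and Pfkl, a phosphofructokinase, had 30.6 and 21.3, against 37.1 and 34.3. Pfkfb4, which makes and breaks down the activator of phosphofructokinase, stood higher in vivo at 4.13 and 5.33 FPKM, against 1.34 and 4.02. With IL-1β both of its values were under the minimum of 5 FPKM, so it was not compared there. No gene of this list was counted between in vivo and day 3 by the size rule.

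Of the other enolase genes, Eno2 was counted between the arms at day 3 and Eno3 in vivo. Eno2, the neuronal form, had 0.998 FPKM with IL-1β and 5.91 without at day 3 and was counted as lower at a log2 ratio of -1.79. Eno3, the muscle form, had 12.3 and 27.1 FPKM in vivo with and without IL-1β and was counted as lower at -1.08. The other glycolysis genes had no further count between the arms. At each of these stages 1 of 15 compared was thus counted. Over all genes, 2.15% were counted as lower at day 3 and 3.48% in vivo. Eno2 stood near the minimum of 5 FPKM, in the pair of libraries whose ratios ran with transcript length.

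Enzymes downstream of pyruvate stood lower in the IL-1β library in vivo, with 19 of 24 ratios below 0 and a median of -0.35. The median over all genes was 0.03. Of the 24, 0 were counted as lower and 1 as higher, against 3.48% and 6.23% of all genes. T cell markers also stood lower with IL-1β in vivo, with 6 of 10 below 0 and a median of -0.16. The part of other cell types in these values was not tested. Sdhb, a subunit of succinate dehydrogenase, had 103 FPKM with IL-1β and 162 without. It was picked after its values were seen. Pdk2, a kinase that turns off pyruvate dehydrogenase, was counted as higher there at 10.1 and 4.11 FPKM (log2 ratio 1.12). It was also counted as higher in vivo than at day 3 with IL-1β, at 10.1 and 2.06 FPKM (1.86). Sucla2, Suclg1, Dld, Sdhd and Pdk3 were the other genes of this list with the largest average difference between stages, and all 5 were lower in vivo than at day 3 in both arms. In the pentose phosphate list 0 genes were counted in the 4 comparisons among the poly(A)-selected libraries. Rpia had 24.9 and 37.9 FPKM in vivo with and without IL-1β against 45.3 and 36.6 at day 3, and Tkt had 103 and 164 against 141 and 174.

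Of the 12 HIF targets outside glycolysis compared between the arms in vivo, 11 had a ratio above 0 with IL-1β, with a median of 0.63, against 0.03 over all genes and 0.06 for the 9 glycolysis genes. In the same comparison the epithelial and stromal markers had a median of 1.76, the erythroid and platelet markers 1.68 and the myeloid markers 0.85, and their part in the HIF target values was not tested. Vegfa, the vascular growth factor, was counted as higher at 28.7 and 10.9 FPKM with and without IL-1β (1.31). Between stages, Mif, a cytokine gene, was counted as lower in vivo in both arms, at 156 FPKM in vivo and 368 at day 3 with IL-1β (-1.24), and at 138 and 286 without (-1.04). Its deposited values lay above their own intervals. Ankrd37 had 3.10 and 4.14 FPKM in vivo with and without IL-1β, against 10.3 and 8.66 at day 3. Its intervals overlapped between stages in both arms, so it was not counted. Kdm3a, a histone demethylase, had 21.7 and 12.0 FPKM in vivo, against 11.3 and 13.0 at day 3.

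Of the regulators, Txnip and Klf2 were counted in the 4 comparisons among the poly(A)-selected libraries. They were 2 of 13 compared between the arms in vivo, where 6.23% of all genes were counted as higher. Between stages with IL-1β they were again 2 of 13, where 12% of all genes were counted as higher. Txnip, whose product restrains glucose uptake, had 132 FPKM in vivo with IL-1β and 57.6 without (1.18), against 31.7 and 37.2 at day 3. Klf2, a quiescence and homing factor of T cells, had 181 and 68.0 FPKM in vivo with and without IL-1β (1.40), against 52.2 and 48.9 at day 3. Both were also counted as higher in vivo than at day 3 with IL-1β, at 2.02 and 1.77. These differences stand in the library with the most epithelial, stromal and myeloid RNA, and the part of those cells in them was not tested. Hif1a had 65.8 and 123 FPKM in vivo with and without IL-1β, against 87.6 and 109 at day 3, and Myc had 82.5 and 70.9, against 69.2 and 75.9. Neither was counted in these 4 comparisons. Rptor and Mtor stayed at or under 6.55 FPKM in each of these 4 libraries.

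At 1 h, 2 of the 10 genes reached the minimum, Ldha at 13.7 and 8.72 FPKM and Aldoa at 7.24 and 3.27 FPKM with and without IL-1β, log2 ratios of 0.60 and 0.95. Their intervals overlapped and 0 were counted, against 7.72% of 933 genes counted as higher and 0.214% as lower. The median ratio of all 933 genes was 0.30. Between 1 h and day 3 all 9 genes compared were counted as higher at day 3 in both arms, as were 95.5% of all genes with IL-1β and 95.7% without, while 0.595% and 0.299% were counted as lower. Scaled to equal medians, 1066 of 1858 genes were higher and 209 lower with IL-1β, and 777 of 1539 higher and 113 lower without. Of the glycolysis genes, 6 of 7 compared with IL-1β and 6 of 6 without were then counted as higher. At 1 h only Ldha and, with IL-1β, Aldoa reached 5 FPKM. The other genes entered through their day 3 value alone, so a count as higher was favoured beforehand. Those under the minimum after scaling dropped out, so these counts say little about the genes. The median shift over genes at 5 FPKM in both libraries was 3.32 and 3.46 on the log2 scale.

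The median profile of all 10 glycolysis genes over the 4 poly(A)-selected libraries was taken as centred log2 of (FPKM + 1). It was -0.14 and -0.21 in vivo with and without IL-1β, and 0.20 and 0.13 at day 3. Eno1, listed at 0 in every library, entered it as a flat profile, which can draw the median toward 0. Among 2649 genes outside the lists with at least 20 FPKM in all 4, the 5 closest by Euclidean distance were Atf1 (0.0427), Smarcb1 (0.0524), 2900064A13Rik (0.0586), Psme3 (0.0589) and Stip1 (0.0696). Stip1, a co-chaperone gene, had 114 and 113 FPKM in vivo with and without IL-1β, and 151 and 136 at day 3. With 4 libraries, closeness of profiles is a description of these libraries only.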

How the data were processed

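RNA-seq of 6 libraries was used, 1 per group. Per the submitters' processing notes, reads were mapped with TopHat to mm9; no source used here names the tool that made the gene values. Deposited files hold FPKM per gene with lower and upper bounds, made by the authors, per the file headers. Of 23700 entries per file, 285 with a status other than OK were left out, and entries sharing a symbol were summed. Coordinates are mm9; RefSeq windows are GRCm38.p6, with no conversion between builds.

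Ratios used a pseudocount of 1, a minimum of 5 FPKM and a 2-fold threshold with separate intervals. Log2 of (FPKM + 1) was tested with limma 3.58.1 (R 4.3.3) over genes with at least 5 FPKM in 1 of 4 libraries, with Benjamini-Hochberg adjustment at 0.05. The rules were also run on simulated data. Changes planted there were larger than most of those of the glycolysis genes among the poly(A)-selected libraries. That run thus does not show how the rules do with changes of this size. Lengths came from GENCODE M21, with a lowess fraction of 0.3. Other values were computed in Python 3.11.15. The members, lists and rules were chosen with earlier results of these data known. Genes were named as all 10 members, up to 6 genes per list with the largest mean absolute ratio of in vivo over day 3, the counted genes, and the 5 closest profiles; Hk1, Hif1a, Myc and Sdhb were added after their values were seen. Mpc1, Mpc2, Ak3l1 and Tigar were not analysed here. Markers of NK and CD8 cells and of B cells were also listed, and limma called 0 of 2 and 0 of 3 tested between stages. By the size rule, Eomes was counted as higher in vivo with IL-1β (10.8 FPKM) than without (4.59). Cd79b was counted as lower there, at 7.85 and 23.8 FPKM, against 6.23% of all genes higher and 3.48% lower. Cd79b was also counted as higher in vivo than at day 3 without IL-1β (2.13% of all genes), and Eomes and Cd79a with IL-1β (12%). B cell markers summed to 28.9 and 45.1 FPKM in vivo with and without IL-1β.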

Additional observations from a re-analysis of the deposited data

Results flagged for a closer look

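Aldoc moved in opposite directions between the stages in the 2 arms. With IL-1β it had 6.99 FPKM in vivo and 17.8 at day 3, a log2 ratio of -1.23, and without IL-1β it had 31.2 FPKM in vivo and 22.8 at day 3, a ratio of 0.43. With 1 library per group this difference between the arms was not tested.

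The entry Gm5506 at the Eno1 locus reached 433 FPKM in the IL-1β library of day 3 and carries a status other than OK, while Eno1 itself is listed at 0. Its log2 ratios were 0.36 and 0.39 for IL-1β against no IL-1β at day 3 and in vivo, and -0.55 and -0.59 for in vivo against day 3 with and without IL-1β. No source used here says how fragments were divided between the 2 entries.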

How the results depend on the processing

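Members counted changed with the size of fold required. At 1.5-fold, 2 were counted between the arms at day 3 (Gapdh and Pgk1) in place of 0. In vivo, 2 (Aldoc and Slc2a1) were counted in place of 1. Between stages, 2 were counted without IL-1β (Pgk1 and Tpi1) in place of 0, and 5 with IL-1β in place of 2. Counts over all genes rose too. At 1.5-fold, 291 of 7962 genes were higher and 736 lower between the arms at day 3, and 761 and 566 of 8639 in vivo. Between stages they were 214 and 160 of 8126 without IL-1β, and 1643 and 1023 of 8572 with IL-1β. With a pseudocount of 5, 1 member was counted between stages with IL-1β (Pgk1) in place of 2, against 621 genes higher and 339 lower. Scaling to T cell markers, chosen after seeing the data, gave 2 between the arms in vivo in place of 1, and turned the split of all genes there to 719 higher and 219 lower, against 538 and 301. The same scaling gave 1315 higher and 344 lower between stages with IL-1β, against 1032 and 503. The other 47 alternatives for members counted stayed within 1.5 times. No member was called by limma in any of 19 alternatives, leave-one-out fits included (0 to 0). The fit with the arm as replicate block, which pairs libraries by culture condition and not by a shared animal, also called 0 members (Pgk1, limma adjusted p = 0.116), while its calls over all genes were 408 against 124. Leaving out any 1 library ended all 124 (limma, 303 to 1291 genes at an unadjusted p under 0.05). No filter gave 5 calls over all genes and removing the length trend 70. For IL-1β against no IL-1β, 34 calls over all genes became 18 and 60 with pseudocounts of 0.1 and 5, 0 with no filter (limma, 571 at an unadjusted p under 0.05), 0 with all 6 libraries (limma, 320) and 1 with the length trend removed. Leaving out 1 library there leaves no residual degree of freedom and was not run.

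Of 171 limma changes of single genes, 5 turned. Leaving out 1 library moved Aldoc between stages over -1.40 to 0.61, the highest without the IL-1β library in vivo, and Slc2a1 over -0.59 to 0.31, the highest without the other in vivo library. For IL-1β against no IL-1β, Gpi1 became 0.18 and Gapdh -0.16 with all 6 libraries, and Hk2 0.023 with the length trend removed. The cause was not tested. Depth is not given, so its limits are visible through the intervals alone.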
